A study of Rattus norvegicus with 6 samples.

Results

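Among the long non-coding RNA (lncRNA) transcripts measured in rat hippocampus, 105 assembled loci were listed with 2 or more transcript isoforms, and the counts of each locus were divided between them. Assembled transcripts are those whose identifier starts with MSTRG, the default prefix of the StringTie assembler, and the locus is the identifier without its last number. The 105 loci held 263 isoforms out of 4972 listed transcripts. The table had 889 assembled transcripts in 726 loci, of which 620 had 1 listed transcript, and MSTRG.3250 was left out by the rule that chose the members. No member carried a gene symbol, so isoforms are named by identifier only, and their sequences and positions were not analysed here.

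A locus can give several RNA isoforms by the use of different start sites, exons and ends. For lncRNAs, which are not translated, the choice of isoform can change which sequence and binding elements the RNA carries, and lncRNAs are often spliced less completely than messenger RNAs. Isoforms assembled from short reads overlap in sequence, so that a read from a shared exon has to be assigned to one of them by a model. The share of an isoform is its count as a percentage of the counts of all listed isoforms of its locus in the same library, and the dominant isoform is the one with the highest share.

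The series compared rats with 2VO, the usual abbreviation for occlusion of both common carotid arteries and by its title the series' model of vascular dementia, with and without trimethylamine N-oxide (TMAO), an oxidation product of trimethylamine that reaches the blood from gut bacteria by way of the liver. The 2VO group was 3 libraries of 2VO rats given sterile water for 8 weeks. The TMAO group was 3 libraries of 2VO rats that received TMAO (120 mg/kg) over 8 weeks, so both groups carry the occlusion and no rats without it enter the comparison. Total RNA of whole hippocampal tissue was used, and because each library is a mix of cell types, fewer cells of a type and less RNA per cell cannot be told apart. The labels give no strain, age or sex of the rats and do not tie the libraries to separate animals, so that p-values reflect only differences among these libraries, which may be technical.

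Each library had a total of 832233 to 919024 counts, and the 105 loci held 23.8% to 25.9% of them. No pair of libraries within a group agreed within sampling noise (chi-square per degree of freedom from 11.4 to 15.7). Of 28 cell type markers looked up by symbol or source gene, 6 had a transcript in the table and none was a member. The neuron, astrocyte, oligodendrocyte, microglia and choroid plexus markers had none, so the tissue label could not be checked against them. Cldn5 and Pecam1 of endothelium and Hba-a1 and Hbb of blood had none either. The 6 found had been listed under endothelium (Cd34) and blood (Ccl5, Tlr9, RT1-Aw2, IGHV4-59, IGKV1-16). RT1-Aw2, the largest of them in 2VO-1 with 290 counts, is not specific to blood, so their sum is no measure of blood. Summed counts were 821, 174 and 306 in 2VO against 170, 91 and 142 in TMAO. The sum was highest in 2VO-1 and all 6 were lower in each TMAO library than in 2VO-1, while IGHV4-59 was at 0 in 2VO-2 and in every TMAO library.

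Most of the loci had a plain structure. A pair of isoforms was listed for 84 loci, 3 for 8 loci, 4 for 6 loci, 5 for 2 loci, 6 for 2 loci, 7 for 2 loci (MSTRG.1744 and MSTRG.914) and 11 for 1 locus (MSTRG.1619). In 67 loci the isoform numbers ran from 1 without a gap. In the other 38 some numbers were not listed, so a share there is of the listed isoforms only. A count in every library was present for 230 of the 263 isoforms, and 1 isoform had no count in any. The mean count of a locus per library ran from 24 to 87987 with a median of 298.7. The pair of loci with the highest counts, MSTRG.1744 and MSTRG.4097, held 66.3% to 69.1% of all counts of the 105 loci in each library.

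One isoform usually held most of the counts of its locus. The median share of the dominant isoform, as a mean over the 6 libraries, was 67.1%, with a range of 22.4% to 99.9%. The dominant share was over 90% in 17 loci and under 50% in 10. It was 71.2% at the median in loci with 2 isoforms and 54.9% in the 21 loci with more. The group medians were alike, at 67.3% in 2VO against 67.2% in TMAO.

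The same isoform was dominant in all 6 libraries in 71 of the 105 loci (67.6%). Where the mean dominant share was 60% or more, this held for 62 of 69 loci. Below 60% it held for 9 of 36. Loci at or above the median count had the same dominant isoform throughout in 41 of 54 cases, and those below it in 30 of 51. For comparison, 96 gene names in the table had 2 or more listed transcripts; 22 of these passed the same minimum of 20 counts per library for the sum, and 17 of the 22 had the same dominant transcript in all 6 libraries, with a median dominant share of 74.0%. The difference between the 2 kinds of locus was not tested.

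**Figure D1:**
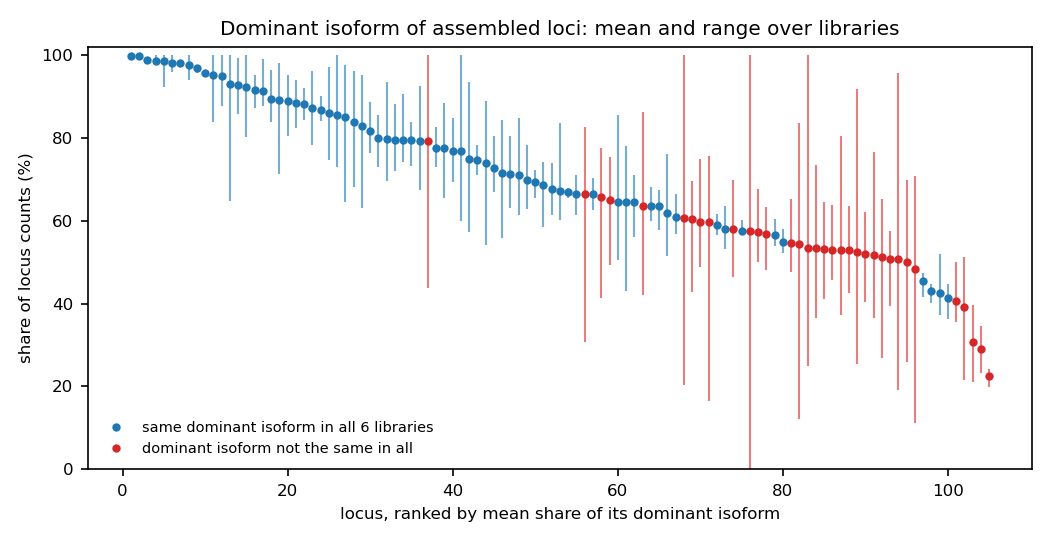
Share of the dominant isoform of each of the 105 loci, ranked from the highest to the lowest mean. Points are means over the 6 libraries in percent of the locus counts and lines run from the lowest to the highest library; red loci, which lacked a common dominant isoform in all libraries, lie mostly below a mean share of 60%.

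MSTRG.4097 had the second highest count and an almost fixed division between its isoforms. MSTRG.4097.2 took 98.1%, 97.9% and 98.1% of the locus in 2VO against 97.8%, 98.2% and 98.0% in TMAO, a mean of 98.05 ± 0.105% against 97.99 ± 0.196% (SD, n = 3). Its few rival counts belonged to MSTRG.4097.1, with 1047 to 1501 counts per library. At a mean of 61334 counts per library counting error is small, and the SD of this share was still 2.78 times the binomial SD.

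MSTRG.1744 had the highest count and no isoform with a majority. MSTRG.1744.7 led in every library, with 44.8%, 41.4% and 42.9% in 2VO against 40.2%, 43.5% and 44.8% in TMAO. MSTRG.1744.3 followed at 18.6%, 22.3% and 22.0% in 2VO against 26.2%, 25.6% and 22.7% in TMAO. The 2 groups did not overlap for MSTRG.1744.3 but lay next to each other at 2VO-2 and TMAO-3, and the log2 odds of its share differed by 0.32 (SE 0.11) at a limma adjusted p of 0.603. MSTRG.1744.8, by relative length the shortest of the 7, had 12432, 11234 and 14461 counts in 2VO compared with 9054, 6309 and 9699 in TMAO. All 3 TMAO counts lay below the 2VO counts, at an edgeR adjusted p of 0.603 for the isoform. For its share of the locus the groups overlapped, at a limma adjusted p of 0.619.

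The 11 isoforms of MSTRG.1619 gave the most even division of all loci. MSTRG.1619.6 held 24.3%, 24.8% and 21.8% in 2VO against 14.7%, 21.0% and 19.6% in TMAO. MSTRG.1619.9 held 20.3%, 19.9% and 22.3% in 2VO against 24.2%, 24.1% and 23.9% in TMAO. MSTRG.1619.6 was thus in the lead in 2VO-1 and 2VO-2, and MSTRG.1619.9 in the other 4 libraries. Another 3 isoforms, MSTRG.1619.3, MSTRG.1619.4 and MSTRG.1619.1, took 15.4%, 20.1% and 7.91% of the 2VO counts on average and 15.5%, 17.8% and 7.87% of the TMAO counts. MSTRG.1619.5 held 4.20% to 10.4%, and the remaining 5 isoforms at most 3.71% in any library, down to MSTRG.1619.7 with 2 to 13 counts per library.

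**Figure D2:**
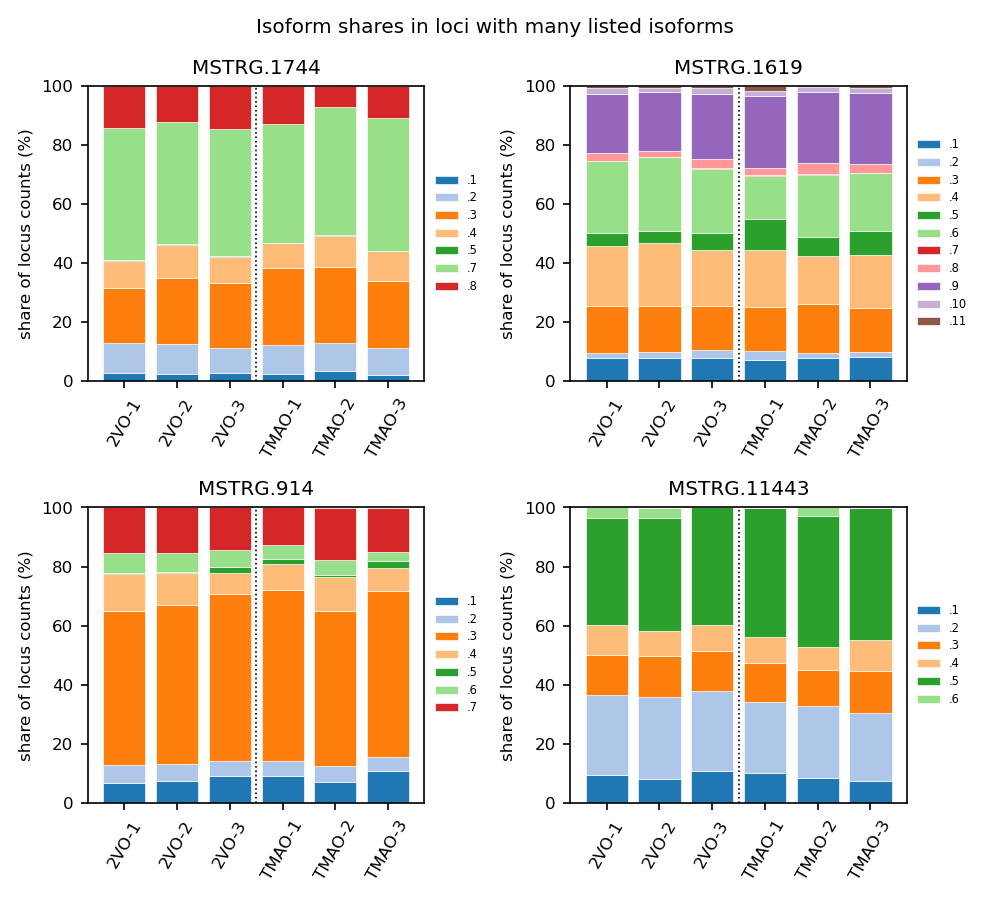
Isoform shares in percent of the locus counts (stacked bars) in each of the 6 libraries for 4 loci with many listed isoforms; colours mark the isoform by the last number of its identifier and the dotted line divides 2VO from TMAO. MSTRG.1744.7, MSTRG.914.3 and MSTRG.11443.5 have the highest share of their locus in all 6 libraries, while the lead in MSTRG.1619 is with MSTRG.1619.6 in 2VO-1 and 2VO-2 and with MSTRG.1619.9 in the other 4.

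Counts favour long isoforms, since a longer RNA gives more reads. The ratio of count to FPKM (the authors' unit, scaled by transcript length and library size) gives the relative length of the isoforms of a locus, and in loci with 2 isoforms the shorter was at the median 0.823 of the longer. The dominant isoform by counts was the longest in 52 loci, and the dominant isoform by FPKM in 42. Both scales named the same dominant isoform in 93 loci and a different one in 12. By FPKM the median dominant share was 65.4%, 59 loci had the same dominant isoform in all 6 libraries, and it differed between the group means in 20.

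Some loci were divided differently on the 2 scales. MSTRG.17369.3 held 97.0% of the counts of its locus and 61.4% of the FPKM, and MSTRG.914.3 held 54.9% of the counts and 29.4% of the FPKM, each with the highest mean share of its locus on both scales. In MSTRG.5725 the isoform MSTRG.5725.2 held 74.8% of the counts, but MSTRG.5725.1, at 0.247 of its length, held 57.6% of the FPKM. In MSTRG.10507 the isoform MSTRG.10507.1 held 64.5% of the counts, and MSTRG.10507.2, at 0.363 of its length, had the higher FPKM, 4.25 against 2.82. MSTRG.5725 and MSTRG.10507 each had the same dominant isoform by counts in every library. In MSTRG.1744 the lead of MSTRG.1744.7 over MSTRG.1744.3 narrowed to 33.2% against 29.1% by FPKM, and in MSTRG.1619 the isoform with the highest FPKM share was MSTRG.1619.6, at 26.7%.

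Shares varied between libraries of the same group by more than counting alone gives. The SD of the dominant share within the groups was 5.95 percentage points at the median, against a binomial SD of 2.38 points from the counts. The ratio of both was 2.18 at the median locus, over 2 in 63 loci, over 5 in 16 and at or below 1 in 7. The 95% Wilson interval of a share in a single library had a half-width of 3.67 points at the median, and these intervals cover counting error only.

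**Figure D3:**
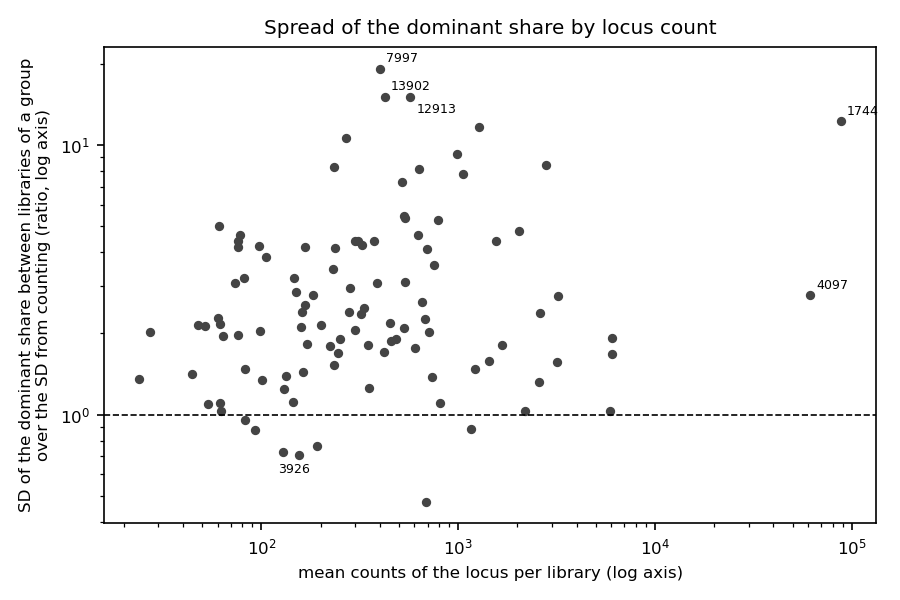
Ratio of the SD of the dominant share between libraries of a group to the SD expected from counting (log axis) against the mean count of the locus per library (log axis), 1 point per locus. Most points lie above the dashed line at a ratio of 1, up to 19.2 in MSTRG.7997. The SD from counting falls as the count rises, so the same spread gives a higher ratio at a high count. MSTRG.1744 had a ratio of 12.2 from an SD of 2.05 percentage points.

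At the even end stood MSTRG.3451, whose dominant isoform MSTRG.3451.3 held 67.5%, 65.5% and 66.9% in 2VO against 67.9%, 66.6% and 66.9% in TMAO. The ratio to counting error was 0.475, the lowest of the 105 loci. MSTRG.8358 kept its 4 isoforms almost as steady, with MSTRG.8358.1 between 18.8% and 20.1% and MSTRG.8358.2 between 56.6% and 60.1% in the 6 libraries. In MSTRG.3926 the isoform MSTRG.3926.5 ranged from 65.5% to 72.3%.

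At the other end, 20 isoforms in 10 loci ranged over more than 50 percentage points among the libraries. Of all isoforms, 33 were at 0 in some library, 12 had a share of 0 in one library and over 20% in another, and 5 had 0 and over 50%. The loci described next were chosen after their values were seen, most of them for a wide range, and no test of group is drawn from them. Of the 10 loci, MSTRG.1039, MSTRG.7097, MSTRG.7112 and MSTRG.8855 are not described.

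MSTRG.7997 had the highest ratio to counting error, 19.2. MSTRG.7997.1 had 0, 200 and 632 counts in 2VO compared with 285, 359 and 45 in TMAO. MSTRG.7997.2 had 335, 112 and 0 in 2VO against 132, 0 and 306 in TMAO. Each isoform therefore held the whole locus in some libraries of the same treatment: MSTRG.7997.1 in 2VO-3 and TMAO-2, and MSTRG.7997.2 in 2VO-1. The 0 of MSTRG.7997.1 in 2VO-1 allows a share of up to 0.896% (3 counts of 335), and the Wilson interval in 2VO-3 runs from 99.4% to 100%. Both isoforms were of nearly equal length, at a ratio of 0.965.

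The counts of MSTRG.13902 moved between isoforms from library to library. MSTRG.13902.5 held 41.5%, 100% and 57.6% in 2VO against 100%, 43.9% and 20.4% in TMAO. The rest went mostly to MSTRG.13902.3 in 2VO-1, TMAO-2 and TMAO-3, with 178, 146 and 402 counts, and to MSTRG.13902.2 in 2VO-3 alone, with 132 counts. MSTRG.13902.2 and MSTRG.13902.3 were at 0 in the other libraries, and no library had both. The fourth isoform, MSTRG.13902.1, had at most 15 counts in a library.

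In MSTRG.12913 the minor isoform was present in 3 libraries and nearly absent in 3. MSTRG.12913.7 had 1, 0 and 401 counts in 2VO compared with 140, 0 and 284 in TMAO, shares of 0.196%, 0% and 47.7% against 20.3%, 0% and 56.3%. The counts of 0 allow shares of up to 0.637% in 2VO-2 and 0.746% in TMAO-2. Its partner MSTRG.12913.6 stayed between 220 and 551 counts. The libraries with high values of MSTRG.12913.7, namely 2VO-3, TMAO-1 and TMAO-3, were also those with high values of MSTRG.3974.1, which had 26, 14 and 132 counts in 2VO compared with 133, 28 and 110 in TMAO. The sum of MSTRG.914 was lower in those 3 libraries, at 3773, 4134 and 2442 counts in 2VO compared with 2523, 4607 and 1759 in TMAO. These patterns cut across the 2 treatment groups. MSTRG.3974 and MSTRG.914 were named because they divide the libraries in the same way. Among 105 loci some would do so by chance, and how many did was not counted.

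Further loci had 1 library apart. MSTRG.11919.12 had 136, 66 and 202 counts in 2VO compared with 235, 161 and 0 in TMAO, so that MSTRG.11919.14 held all of the locus in TMAO-3 alone. MSTRG.5567.1 had 198, 127 and 29 counts in 2VO compared with 155, 153 and 100 in TMAO, on sums of 209 to 271, so that its share was lowest in 2VO-3. In MSTRG.8392 the isoform MSTRG.8392.7 was low in TMAO-3, with 11 counts there against 39 to 62 in the other libraries.

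In several of these loci the sum was steadier than its parts. The coefficient of variation (CV) between libraries of a group, on counts scaled to equal library totals, was 13.4% for the sum of MSTRG.11919 and 48.3% for its dominant isoform. The values were 6.95% and 48.3% in MSTRG.5567 and 7.44% and 44.9% in MSTRG.8392. In MSTRG.12913 the sum was the more variable, at 29.4% against 26.8%. Over the 105 loci the median CV was 15.7% for the sum and 19.6% for the dominant isoform, the sum had the lower CV in 74 loci, and it was below that of every one of its isoforms in 56. A sum pools counts and so carries less counting error than its parts. How much of the difference in CV comes from this was not tested.

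No isoform changed its share between TMAO and 2VO at an adjusted p of 0.05 in the main test. That test was limma on the log2 odds of the share, fitted on all 311 transcripts of the table that shared a locus or gene name and passed the count minimum, of which 248 were members in 100 loci. The smallest adjusted p of a member was 0.555, and 15 members were below the minimum. At an unadjusted p under 0.05 there were 24 member isoforms in 15 loci, 14 with a higher share in TMAO (background 4.5% of all tested) and 10 with a lower one (3.54%). Together they were 9.68% of the members tested, against 8.04% of all transcripts tested, most of which are members. In loci with 2 isoforms both shares give the same test, so isoforms are not independent.

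The groups did not overlap for 28 member isoforms in 16 loci, 11.3% of those tested, and the share over all transcripts tested was 11.3% as well. The median absolute difference of the group means was 3.02 points in members and 3.35 points in all transcripts tested. A difference of more than 10 points was measured for 39 isoforms in 20 loci, and the groups overlapped for all but 9 of them. Neither count was made over all transcripts tested, so they are not read as a trait of the members. With 3 libraries against 3 the exact two-sided permutation test of a single share cannot give a p below 0.1.

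A second test, edgeR diffSpliceDGE, asks whether an isoform's fold change differs from that of its locus. This test treats the counts of isoforms as independent, although isoforms of a locus compete for reads, so it was planned only as an alternative. Its transcript test called 2 of 227 members, MSTRG.429.1 (adjusted p = 0.000591) and MSTRG.8257.3 (adjusted p = 0.0344), or 0.719% of all 278 transcripts tested. Its locus test called the same loci, 2 of 93, against 1.79% of all 112 tested. At an unadjusted p under 0.05 it found 6 members (2.52% of all tested) and 8 loci (7.14%). Both called isoforms are minor members of their locus, and both are also in the authors' deposited table of 56 selected transcripts.

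MSTRG.429.1 was counted in TMAO libraries only. It had 0 counts in each 2VO library and 119, 70 and 23 in TMAO, which made up 1.59%, 1.17% and 0.395% of the locus. The pooled TMAO share was 1.10%, against a floor of 0.0185% in 2VO (3 counts over the 16173 counts of the locus). The ratio of both, 59.4, leaves out the spread between libraries, so it is no lower bound for the groups. The dominant isoform MSTRG.429.4 held 96.2 ± 0.184% in 2VO and 95.3 ± 0.338% in TMAO (SD, n = 3). Its groups did not overlap either, at a limma adjusted p of 0.683 for the share. The locus sum was 4339, 5907 and 5927 against 7470, 5959 and 5819 counts, with an edgeR adjusted p of 0.739. These counts overlap, but scaled to a common library total (CPM) the sums did not, at means of 6108 in 2VO against 7336 in TMAO. The main test gave MSTRG.429.1 an adjusted p of 0.568, and the limma test on FPKM shares 0.0158.

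MSTRG.8257.3 had 0, 0 and 4 counts in 2VO compared with 17, 55 and 28 in TMAO. Its share of the locus was 0%, 0% and 3.57% in 2VO, with an upper Wilson bound of 8.82% in 2VO-3, and 7.59%, 28.5% and 19.9% in TMAO, with a lower bound of 4.79% in TMAO-1. The groups did not overlap, but the interval of 2VO-3 crossed that of TMAO-1. The main test gave an adjusted p of 0.603. MSTRG.8257.1 remained dominant in every library, from 67.4% to 92.7%, and the third isoform MSTRG.8257.4 held 4.15% to 16.9%.

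These calls differed in how far they rested on single libraries, in fits added after the data were seen. With each library left out in turn, the diffSpliceDGE adjusted p of MSTRG.429.1 stayed between 0.000132 and 0.0213. That of MSTRG.8257.3 passed 0.05 without 2VO-3 (0.00766) and without TMAO-1 (0.0210), but not without 2VO-1 (0.232), 2VO-2 (0.189), TMAO-2 (0.455) or TMAO-3 (0.172).

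By the main test, the smallest unadjusted p belonged to MSTRG.14110, a locus of 2 isoforms. MSTRG.14110.1 held 65.2%, 66.2% and 68.1% in 2VO against 59.9%, 61.5% and 60.2% in TMAO, that is 66.5 ± 1.44% against 60.5 ± 0.886% (SD, n = 3). All 3 TMAO shares lay below all 2VO shares, and the Wilson intervals of the libraries had half-widths of 1.05 to 1.28 points. The log2 odds were lower by 0.37 (SE 0.10) on the log2 scale, with an unadjusted limma p of 0.00513 and an adjusted p of 0.555. The isoform stayed dominant in all 6 libraries, and the locus sum did not pass the test (log2 fold change -0.12, SE 0.15, edgeR adjusted p = 0.859).

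MSTRG.1619.5 had the next smallest p. Its share was 4.58%, 4.20% and 5.81% in 2VO against 10.4%, 6.71% and 8.11% in TMAO, without overlap (limma adjusted p = 0.555). MSTRG.1619.6 was lower and MSTRG.1619.9 higher in TMAO, each also without overlap, at limma adjusted p of 0.603 for both shares. DESeq2 gave the isoform MSTRG.1619.6 an adjusted p of 0.0493 for its counts of 2027, 1394 and 1350 against 866, 1019 and 1016. That call was lost without any 1 of the 6 libraries, with adjusted p from 0.0584 to 0.334.

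The sum of MSTRG.11443 passed the test in DESeq2 but not in edgeR, and none of its shares did. Its counts were 3262, 2761 and 2948 in 2VO against 2356, 1860 and 2181 in TMAO, 3383 ± 268 against 2443 ± 221 CPM (counts scaled to a common library total; SD, n = 3), or 1.38-fold lower in TMAO, with no overlap. The log2 fold change was -0.47 (SE 0.10), with adjusted p-values of 0.381 (edgeR) and 0.0178 (DESeq2). The DESeq2 call was lost without 2VO-1 (adjusted p = 0.0768) and without 2VO-3 (0.117), and the edgeR log2 fold change was -0.39 to -0.52 with a library left out. The summed counts of the 6 markers found were 821, 174 and 306 in 2VO against 170, 91 and 142 in TMAO. All 2VO sums lay above all TMAO sums, with 2VO-2 only just above TMAO-1. Their part in the result was not tested.

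Within MSTRG.11443 no difference between the isoforms passed a test. The diffSpliceDGE locus test, which asks whether their fold changes differ, gave an edgeR adjusted p of 0.998. MSTRG.11443.2 had 893, 763 and 792 counts in 2VO compared with 562, 449 and 504 in TMAO, with log2 fold change -0.67 (SE 0.11). The isoform had an adjusted p of 0.188 by edgeR and 0.000275 by DESeq2, and the DESeq2 value stayed between 0.000304 and 0.0039 with a library left out. The dominant MSTRG.11443.5 had 1184, 1052 and 1176 counts against 1036, 827 and 978, a log2 fold change of -0.24 (SE 0.11) at an edgeR adjusted p of 0.666. Its share was therefore higher in TMAO, at 36.3%, 38.1% and 39.9% against 44.0%, 44.5% and 44.8% without overlap, and that of MSTRG.11443.2 lower, at 27.3 ± 0.391% against 23.7 ± 0.532% (SD, n = 3). Neither share passed the main test, with a limma adjusted p of 0.603 for each. MSTRG.11443.6, the shortest by relative length, was on and off within both groups, with 116, 98 and 0 counts against 0, 51 and 1.

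MSTRG.11533 had a minor isoform with fewer counts in TMAO. MSTRG.11533.1 had 81, 64 and 70 counts in 2VO compared with 20, 15 and 39 in TMAO, or 13.4 ± 0.688% against 5.81 ± 3.09% of the locus (SD, n = 3). The dominant MSTRG.11533.4 had 480, 417 and 477 counts against 406, 413 and 376. The sum was 573, 485 and 547 counts in 2VO compared with 434, 428 and 418 in TMAO, and on counts scaled to CPM neither the sum nor MSTRG.11533.1 overlapped between the groups. MSTRG.11533.4 did overlap on that scale, at 517 ± 38.9 against 459 ± 23.5 CPM (SD, n = 3). The limma adjusted p of the share was 0.603, the diffSpliceDGE adjusted p of the locus 0.138, the edgeR adjusted p of the isoform 0.503 and that of the sum 0.623. The other 2 isoforms had at most 12 counts in a library.

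The dominant isoform of the group means differed between 2VO and TMAO in 16 loci, and all 16 lacked a common dominant isoform over the libraries. Their mean dominant share was between 22.4% and 54.5%, so the first 2 isoforms were close. In 2 of them, MSTRG.9644 and MSTRG.936, every 2VO library had one dominant isoform by counts and every TMAO library another. By FPKM this did not hold in either locus: MSTRG.9644.2 already led in 2VO-1, and the 2VO libraries of MSTRG.936 were led by MSTRG.936.2, MSTRG.936.3 and MSTRG.936.1. Leaving out 1 library moved the number of loci with differing dominance to between 12 and 19.

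In MSTRG.9644, with 5 isoforms, MSTRG.9644.1 held 36.1%, 32.2% and 29.9% in 2VO against 21.9%, 25.3% and 25.7% in TMAO. MSTRG.9644.2 held 34.7%, 23.3% and 24.9% in 2VO against 32.0%, 27.8% and 30.7% in TMAO. The lead was narrow in 2VO-1, at 36.1% against 34.7%, and in TMAO-2, at 27.8% against 25.3%. The exchange of places came with a lower MSTRG.9644.1 (limma adjusted p of the share 0.603), while the groups overlapped for MSTRG.9644.2. The sum was nearly equal, at 744 ± 69.3 against 753 ± 8.29 CPM (SD, n = 3).

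In MSTRG.936, MSTRG.936.3 held 42.9%, 50.1% and 41.7% in 2VO against 35.7%, 35.6% and 37.4% in TMAO. MSTRG.936.1 held 24.4%, 20.4% and 36.8% in 2VO against 45.2%, 39.3% and 38.5% in TMAO. The groups did not overlap for either isoform, and the limma adjusted p was 0.619 and 0.603. In TMAO-3 the 2 isoforms differed by 104 against 101 counts, so its lead there is within counting error. By FPKM MSTRG.936.1 led over all libraries, with 38.5%.

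Other changes of lead were less uniform. MSTRG.17462.1 held 59.7%, 64.5% and 56.4% in 2VO against 45.7%, 51.4% and 41.2% in TMAO, so the groups did not overlap and TMAO-2 kept the 2VO order (limma adjusted p = 0.603). MSTRG.15152.1 held 44.2%, 36.6% and 51.0% in 2VO against 50.3%, 73.5% and 65.1% in TMAO, with TMAO-1 below 2VO-3. MSTRG.5130.1 held 63.4%, 76.7% and 42.8% in 2VO against 36.4%, 44.5% and 47.2% in TMAO, where the value of 2VO-3 lay among those of TMAO. In MSTRG.5978, MSTRG.4755 and MSTRG.5567 the groups overlapped as well.

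No locus sum of a member passed an adjusted p of 0.05 in edgeR. All 105 loci were tested among 1253 features, 0 passed, and the smallest adjusted p of a member locus was the 0.381 of MSTRG.11443. DESeq2 called 1 member locus, the same one, and 1.04% of all features. At an unadjusted p under 0.05 there were 3 member loci, or 2.86%, against 7.5% of all features tested. Of them 1 was higher in TMAO (3.03% of all features) and 2 lower (4.47%), and DESeq2 found 4 (5.67% of all features). The 3 were MSTRG.11443, MSTRG.11533 and MSTRG.3451, the last with 563, 682 and 628 counts in 2VO compared with 792, 746 and 688 in TMAO. The groups did not overlap for 9 loci, against 14.6% of all features. The median absolute log2 fold change was 0.16 in the 105 loci and 0.23 in all features, and the median log2 fold change was -0.01 in both.

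Single isoforms were tested in the same way. Of 239 members tested among 1389 transcripts, 0 passed an adjusted p of 0.05 in edgeR, and DESeq2 called 4, against 1.22% of all transcripts. They were MSTRG.429.1 (adjusted p = 1.27e-06), MSTRG.11443.2, MSTRG.8257.3 (0.0126) and MSTRG.1619.6. With a library left out, MSTRG.429.1 kept a DESeq2 adjusted p of at most 0.000304. MSTRG.8257.3 ended above 0.05 without 2VO-1 (0.0629), 2VO-2 (0.0664), TMAO-2 (0.473) and TMAO-3 (0.221). At an unadjusted p under 0.05 edgeR found 18 members, or 7.53% against 7.56% of all transcripts. Of these, 5 were higher in TMAO (3.02% of all transcripts were) and 13 lower (4.54%). DESeq2 found 16 members, or 6.69%, against 5.83%. Groups did not overlap for 30 members (12.6%), against 14.4% of all transcripts.

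Fold changes within a locus had the same sign about as often as not. Of 93 loci with 2 or more isoforms tested in edgeR, 44 had the same sign for all and 49 did not. None held 2 isoforms at an unadjusted p under 0.05 in opposite directions. Independent signs would differ as often as they agree in a locus of 2 isoforms, and more often with more isoforms. The count was not made for other loci, so it is not read as a trait of the members. Of the 18 isoforms under that threshold in counts, 8 were also under it in share. Of the 105 loci, MSTRG.11443 and MSTRG.11533 were under it both in the sum and in a share.

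**Figure D4:**
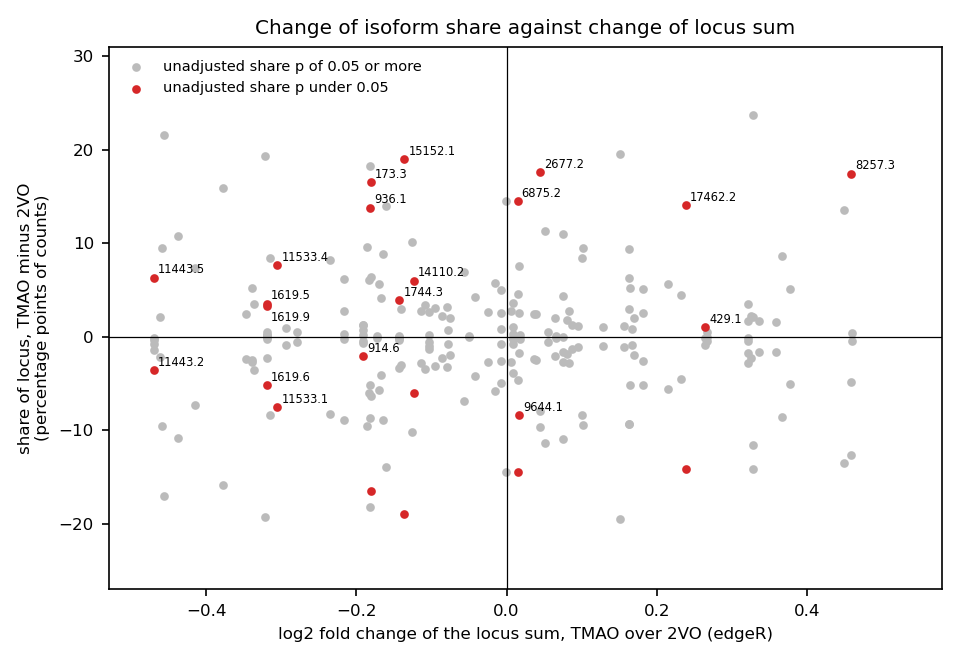
Difference of the mean isoform share (TMAO minus 2VO, percentage points) against the edgeR log2 fold change of the locus sum, 1 point per member isoform in the share test. Red points, labelled in part by identifier without the MSTRG prefix, have an unadjusted limma p under 0.05; none passed an adjusted p of 0.05, and isoforms of 1 locus share their place on the x axis.

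The authors' deposited table of selected transcripts held 7 members, all with no source gene. In the authors' deposited table MSTRG.429.1 and MSTRG.8257.3 had a false discovery rate of 1.66e-06 and 0.0189, and the other 5 had 0.301 or more. In terms of share, MSTRG.173.2 held 6.19%, 27.8% and 35.5% of its locus in 2VO against 2.40%, 10.1% and 7.38% in TMAO, with 2VO-1 inside the TMAO range. MSTRG.6875.1 held 31.9%, 12.1% and 25.9% in 2VO against 18.1%, 4.62% and 3.70% in TMAO, where TMAO-1 lay above 2VO-2. MSTRG.14896.3 rested on 0 to 18 counts per library.

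MSTRG.14594.4 had 0 counts in each 2VO library and 41, 82 and 0 in TMAO, so TMAO-3 did not differ from the 2VO libraries. Its pooled share in TMAO was 2.76%, against a floor of 0.0618% in 2VO (3 counts over the pooled locus counts). The ratio of both, 44.7, leaves out the spread between libraries, so it is no lower bound for the groups. The dominant MSTRG.14594.5 held 73.2% to 83.9% in all libraries. In all 7 loci the isoform in the authors' deposited table was a minor one, and the dominant isoform was the same in every library of both groups.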

How the data were processed

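For all 6 libraries the authors deposited raw counts and FPKM values of every listed lncRNA transcript, per the file headers, and a second table of 56 selected transcripts with the authors' log2 ratio, p-value and false discovery rate. The submitters' processing notes name StringTie, HISAT2 2.1.0, Bowtie2, fastp 0.18.0, DESeq2 and build rn6, without roles. Shares carry the uncertainty of how reads were divided between overlapping isoforms and of the strand setting, both not given in the sources used here.

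Members and lists were chosen with earlier results of these data known. Shares were tested with limma 3.58.1 (prior variance following the counts) on log2((isoform + 0.5)/(rest + 0.5)), with a mean of at least 5 counts for isoform and rest and of 20 for the locus. Sums and single isoforms were tested with edgeR 4.0.16 (quasi-likelihood, TMM, filterByExpr with a minimum count of 10 and total of 15) in R 4.3.3 over the whole table. All p-values are two-sided, and adjustment was by Benjamini-Hochberg over all features tested, except in DESeq2. There its default filter left some features with low counts, such as MSTRG.9079.1, out of the adjustment. The tests were also run on simulated data in which isoforms varied independently of each other, and nothing is concluded from those runs. CPM values use the counts of the table with TMM scaling. Alternatives were DESeq2 1.42.0, diffSpliceDGE, FPKM shares, limma on log2(FPKM + pseudocount) with pseudocounts of 0.1, 0.01 and 1, other offsets, filters and size factors, the replicate number as a block, and each library left out. Figures were drawn with matplotlib 3.10.9.

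Named loci were the 6 with the highest count, the 8 with the smallest share p, 4 per direction with the smallest p of the sum, 6 with differing dominance, the 3 with the most isoforms, those in the second table and those with isoforms in opposite directions (none). This gave 22 loci, and others are named where a count or range singled them out after their values were seen.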

Additional observations from a re-analysis of the deposited data

How the results depend on the processing

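With an adjusted p under 0.05 the main tests called 0 member shares, sums and isoforms, and also 0 with any library left out. The share count was 2 isoforms in 2 loci with the diffSpliceDGE transcript test (2 loci with its locus test), and 1 isoform in 1 locus, MSTRG.429.1, both with FPKM shares and without the variance trend. DESeq2 called 1 sum and 4 isoforms, and limma on FPKM called 1 isoform at pseudocounts of 0.1 and 0.01. At an unadjusted p, the 24 shares became 6 with diffSpliceDGE, 11 without the trend and 12 to 26 with a library left out, lowest without 2VO-1 (12), 2VO-2 (13) and TMAO-3 (15). The 3 sums became 6 with limma on FPKM, whatever the pseudocount, and 3 to 6 with a library left out, 6 of them without 2VO-2 and 5 without 2VO-1, 2VO-3 or TMAO-2. The 18 isoforms became 15 to 25. With a library left out, which cannot lower it, the number of loci with 1 dominant isoform throughout (71) ran from 71 to 76 and the median dominant share from 67.3% to 68.7%; by FPKM they were 59 and 65.4%, and with pooled counts 71 and 66.9%. The cause of these changes was not tested. With the added fits that left out a library, diffSpliceDGE called 1 or 2 isoforms, DESeq2 2 to 5 isoforms and 0 to 2 sums.

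Replicate numbers were not read as pairs, since libraries with the same number deviated together weakly or not at all, with correlations of -0.09, 0.22 and 0.05 over transcripts and -0.18, 0.06 and -0.11 over shares. With the replicate number as a block the unadjusted counts were 22 shares, 4 sums and 23 isoforms, with 0 at an adjusted p. Under that block the log2 fold change of isoform MSTRG.4097.1, 0.00 in the main fit, was -0.00623.

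Of 77 values followed, 59 kept their direction throughout and 18 did not, all with no call. The share of MSTRG.9522.1 turned to 7.06e-05 with diffSpliceDGE and that of MSTRG.13852.1 to 0.62 at an offset of 0.1. At a mean count of at least 50, MSTRG.4097.1 turned to -0.0187, and the sums of MSTRG.9644 and MSTRG.6875 to -0.00444 and -0.00382. With limma at pseudocounts of 0.1, 0.01 and 1 they turned to -0.0733, -0.0733 and -0.0730 for MSTRG.4097.1, to -0.0469, -0.0472 and -0.0447 for MSTRG.9644, and to -0.0260, -0.0268 and -0.0204 for MSTRG.6875. With a library left out, the log2 odds of the share ran from -1.34 to 2.496 for MSTRG.13852.1, from -0.35 to 0.0464 for MSTRG.3451.2, from -0.25 to 0.15 for MSTRG.9522.1, from -0.96 to 0.0806 for MSTRG.4755.1, from -0.38 to 2.21 for MSTRG.5567.1 and from -0.0233 to 0.12 for MSTRG.4097.1. The log2 fold change of the sum ran from -0.37 to 0.10 for MSTRG.5130, from -0.25 to 0.0437 for MSTRG.14110, from -0.0797 to 0.12 for MSTRG.6875, from -0.0561 to 0.0620 for MSTRG.9644, from -0.24 to 0.0777 for MSTRG.14594, from -0.11 to 0.00476 for MSTRG.4097 and from -0.69 to 0.0590 for MSTRG.914. That of the isoform ran from -0.0306 to 0.21 for MSTRG.1744.3, from -0.13 to 0.10 for MSTRG.4097.1, from -0.26 to 0.26 for MSTRG.14896.2, from -0.21 to 0.81 for MSTRG.5567.1 and from -0.00314 to 0.33 for MSTRG.3451.2. Depth limits the low loci: a single-library Wilson interval reached a half-width of 19.0 points.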
